A study of Mus musculus with 2 samples.

Results

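The miR-200 family and the miR-183 cluster are 8 of the 2202 microRNA genes counted in hippocampus of male B6CASTF1/J mice at 2 months of age. The genes were chosen by symbol: Mir200a, Mir200b, Mir200c, Mir141 and Mir429 for the miR-200 family, and Mir183, Mir96 and Mir182 for the miR-183 cluster. B6CASTF1/J is the first-generation hybrid of C57BL/6J and CAST/EiJ mice, supplied by The Jackson Laboratory, and the labels give no treatment and no engineered allele. The 2 samples form a single group, biological replicates 1 and 2, so no condition was compared with another. They are separate biosamples under 1 donor entry, and nothing in the labels says that they came from different animals, so any spread given here may be technical.

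MicroRNAs are short RNAs that guide repression of messenger RNAs, mainly through pairing of their seed, bases 2 to 8 from the 5′ end. The miR-200 microRNAs are known for keeping cells epithelial by repressing the transcription factors ZEB1 and ZEB2, which in turn repress E-cadherin. In the nervous system of mouse and zebrafish they are best known from olfactory neurogenesis. The miR-183 cluster is known from photoreceptors, inner-ear hair cells and the sensory neurons of dorsal root ganglia, and mutations in the seed of miR-96 cause progressive hearing loss in mouse and human. Neither group is a hallmark of hippocampal neurons.

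All 8 genes were found in the RefSeq microRNA table (build GRCm38.p6), with hairpin coordinates equal to those of the GENCODE M21 annotation of mm10. The mature sequences of the arm usually taken as the functional one are printed first, 5′ to 3′, because their seeds divide the family differently from its genomic loci. Capitals mark the seed.
miR-200b-3p: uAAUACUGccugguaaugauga
miR-200c-3p: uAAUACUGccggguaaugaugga
miR-429-3p: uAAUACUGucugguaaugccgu
miR-200a-3p: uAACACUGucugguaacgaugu
miR-141-3p: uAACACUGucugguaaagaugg
miR-183-5p: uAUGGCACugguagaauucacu
miR-96-5p: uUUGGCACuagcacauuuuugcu
miR-182-5p: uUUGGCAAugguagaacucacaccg

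Positions were counted from 1 at the 5′ end. Within the seed, miR-200a-3p differed from miR-200b-3p by the substitution C4U, which divides the family into the AAUACUG microRNAs (miR-200b, miR-200c and miR-429) and the AACACUG microRNAs (miR-200a and miR-141). Outside the seed, miR-200c-3p was identical to miR-200b-3p except for U11G and A22G over the 22 bases compared. The same comparison of miR-200a-3p with miR-141-3p gave C17A and U22G. In the miR-183 cluster, miR-96-5p and miR-182-5p shared their first 7 bases and differed at the last seed base by C8A. The seed of miR-183-5p differed from that of miR-96-5p by A2U and from that of miR-182-5p by A2U and C8A. Despite these different seeds, 18 of 22 bases of miR-183-5p were the same in miR-182-5p.

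The 8 genes lie at 3 loci, all on the minus strand. Mir200b (ENSMUSG00000065549.3, chr4:156055681-156055750), Mir200a (ENSMUSG00000065400.1, chr4:156054896-156054985) and Mir429 (ENSMUSG00000065427.1, chr4:156053905-156053987) span 1846 nt inside an intron of Ttll10, a tubulin tyrosine ligase-like gene of the same strand. Mir429 also lies in an exon of the noncoding transcript Gm13648, while Mir200b and Mir200a lie in its introns. Mir200c (ENSMUSG00000065462.3, chr6:124718322-124718390) and Mir141 (ENSMUSG00000065474.1, chr6:124717914-124717985) are 336 nt apart in an intron of the noncoding gene Gm15884, between Phb2 and Ptpn6. Mir141 also overlaps an exon of Gm29008, a transcript of the same strand, by 31 bases. Mir183 (ENSMUSG00000065619.2, chr6:30169668-30169737), Mir96 (ENSMUSG00000065586.1, chr6:30169446-30169551) and Mir182 (ENSMUSG00000076361.1, chr6:30165918-30165992) are intergenic, between Nrf1 and Ube2h. Mir96 begins 116 nt after Mir183, and Mir182 follows after a further 3453 nt.

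MicroRNA genes held 2322520 counts in replicate 1 and 3414105 in replicate 2. Counts of each library were scaled to 1000000 over its microRNA genes (CPM). A count stands for a read of either arm of the hairpin, so seed groups below sum whole genes. A count of 0 allows up to 3 counts, or 1.29 CPM in replicate 1 and 0.879 CPM in replicate 2. Intervals are Wilson 95% intervals and, like these floors, cover counting error only. Multimapping reads, 42.6% and 46% of all reads in replicates 1 and 2, are in no gene's count. No member shared a run of 20 nt or more with any other of the 2202 genes, the longest being 17 nt between the Mir200a and Mir141 hairpins. No member had an opposite-strand count.

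Both groups were present at low level. Of the 8 genes, 7 reached 2 CPM in each of the libraries, called detected here, against 18.2% of all microRNA genes, and the exception was Mir96. Every detected member had a mean under 100 CPM, as did 204 of all 401 detected genes. Their median of mean CPM was 49.5, beside 87 over all detected genes. The miR-200 genes together had 186 CPM (169 to 204) in replicate 1 and 232 CPM (216 to 248) in replicate 2, a mean of 209 ± 32.6 CPM (SD, n = 2). The miR-183 cluster had 133 CPM (119 to 149) in replicate 1 and 42.8 CPM (36.4 to 50.3) in replicate 2, a mean of 87.9 ± 63.8 CPM (SD, n = 2). In a tissue sample, fewer cells of a type and less RNA per cell cannot be told apart.

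**Figure D1:**
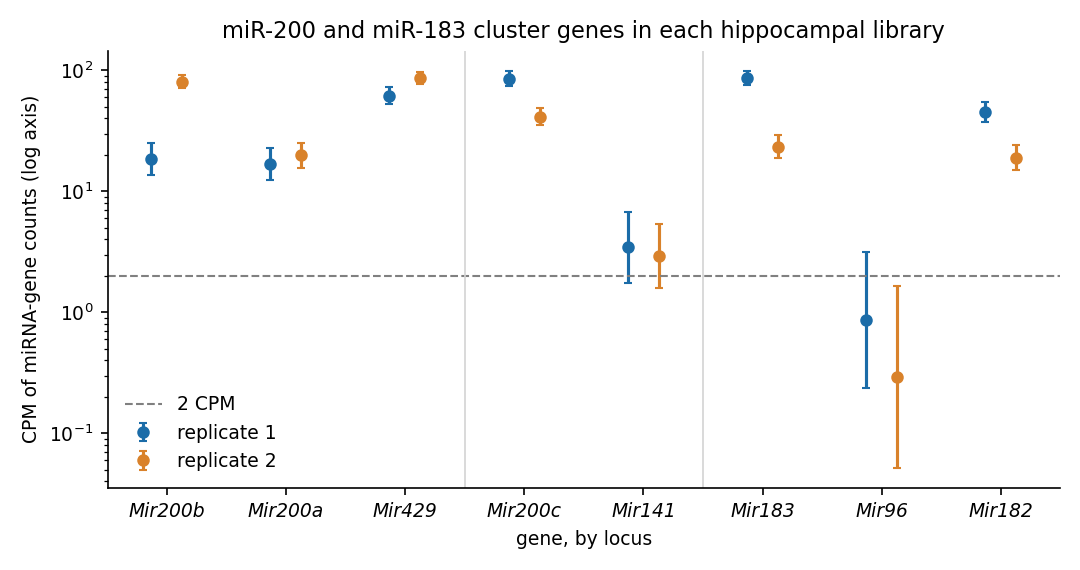
CPM on a log axis of each gene in replicate 1 (blue) and replicate 2 (orange), grouped by locus with grey lines between loci. Bars are Wilson 95% intervals and the dashed line is the detection level of 2 CPM. Mir96 lies below that line in both libraries, and Mir141 just above it.

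Among the AAUACUG microRNAs, Mir429 had 143 counts (61.6 CPM) in replicate 1 and 297 counts (87 CPM) in replicate 2. Mir200c, which sits at the other locus, had 198 counts (85.3 CPM) in replicate 1 and 141 counts (41.3 CPM) in replicate 2. Mir200b had 43 counts (18.5 CPM) in replicate 1 and 275 counts (80.5 CPM) in replicate 2. So 2 genes of the same seed, Mir200b and Mir200c, were high in different libraries, and for neither did the intervals of the libraries overlap. Those of Mir429 (52.3 to 72.5 against 77.6 to 97.5 CPM) did not overlap either. Differences beyond counting error were common, at 50.9% of all 401 detected genes by the exact binomial test given below. The AACACUG microRNAs were lower. Mir200a had 39 counts (16.8 CPM) in replicate 1 and 68 counts (19.9 CPM) in replicate 2, with overlapping intervals. Mir141 had 8 counts (3.44 CPM, 1.75 to 6.8) in replicate 1 and 10 counts (2.93 CPM, 1.59 to 5.39) in replicate 2, the lowest level of the family in both.

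In the miR-183 cluster, Mir183 had 201 counts (86.5 CPM) in replicate 1 and 80 counts (23.4 CPM) in replicate 2. Mir182 had 106 counts (45.6 CPM) in replicate 1 and 65 counts (19 CPM) in replicate 2. Both were higher in replicate 1, with intervals that did not overlap between the libraries. Differences beyond counting error were common among all detected genes, as stated above. Mir96, the gene of the microRNA tied to hearing loss, had 2 counts in replicate 1 and 1 count in replicate 2, below the 3 counts that a count of 0 allows. Its level could therefore not be told from that of a gene with 0 counts, although it lies between Mir183 and Mir182. The intervals for Mir96 were 0.236 to 3.14 CPM in replicate 1 and 0.0517 to 1.66 CPM in replicate 2.

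Ordered by mean, the genes ran from Mir429 (74.3 ± 18 CPM) through Mir200c (63.3 ± 31.1), Mir183 (55 ± 44.6), Mir200b (49.5 ± 43.9) and Mir182 (32.3 ± 18.8) to Mir200a (18.4 ± 2.21 CPM), each as mean ± SD of n = 2. Neighbours in that order differed by less than the larger of their SDs. Mir141 at 3.19 ± 0.365 CPM and Mir96 at 0.577 ± 0.402 CPM stood below by more than the SDs, in this order in both libraries. The leading member changed with the library. In replicate 1 it was Mir183, at rank 200 of the 2202 genes, and in replicate 2 it was Mir429, at rank 207.

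Neighbouring genes of a locus are thought to be cut from a common primary transcript, and some neighbours here had very different counts. Mir183 exceeded Mir182 by 1.9-fold in replicate 1 (exact 95% interval 1.49 to 2.42) and by 1.23-fold in replicate 2 (0.876 to 1.73), so the ratios of the libraries overlapped. Mir183 exceeded Mir96 by 100-fold in replicate 1 (27.5 to 836) and by 80-fold in replicate 2 (14 to 3199). At the Mir200c and Mir141 locus, Mir200c exceeded Mir141 by 24.8-fold in replicate 1 (12.3 to 58.1) and by 14.1-fold in replicate 2 (7.44 to 30). For Mir183 over Mir96 and for Mir200c over Mir141, the intervals lay above 1 in both libraries, whereas Mir183 over Mir182 did so in replicate 1 only.

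At the chromosome 4 locus, Mir429 and Mir200a kept a like proportion to each other and Mir200b did not. Mir429 exceeded Mir200a by 3.67-fold in replicate 1 (2.56 to 5.37) and by 4.37-fold in replicate 2 (3.35 to 5.77). The ratio of Mir200b to Mir200a was 1.1 in replicate 1 (0.698 to 1.75) and 4.04 in replicate 2 (3.09 to 5.35), with no overlap between these intervals. Mir200b made up 9.98% of the miR-200 counts in replicate 1 (Wilson 95% interval 7.49 to 13.2) and 34.8% in replicate 2 (31.5 to 38.2). Mir200c made up 45.9% in replicate 1 (41.3 to 50.7) and 17.8% in replicate 2 (15.3 to 20.6).

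**Figure D2:**
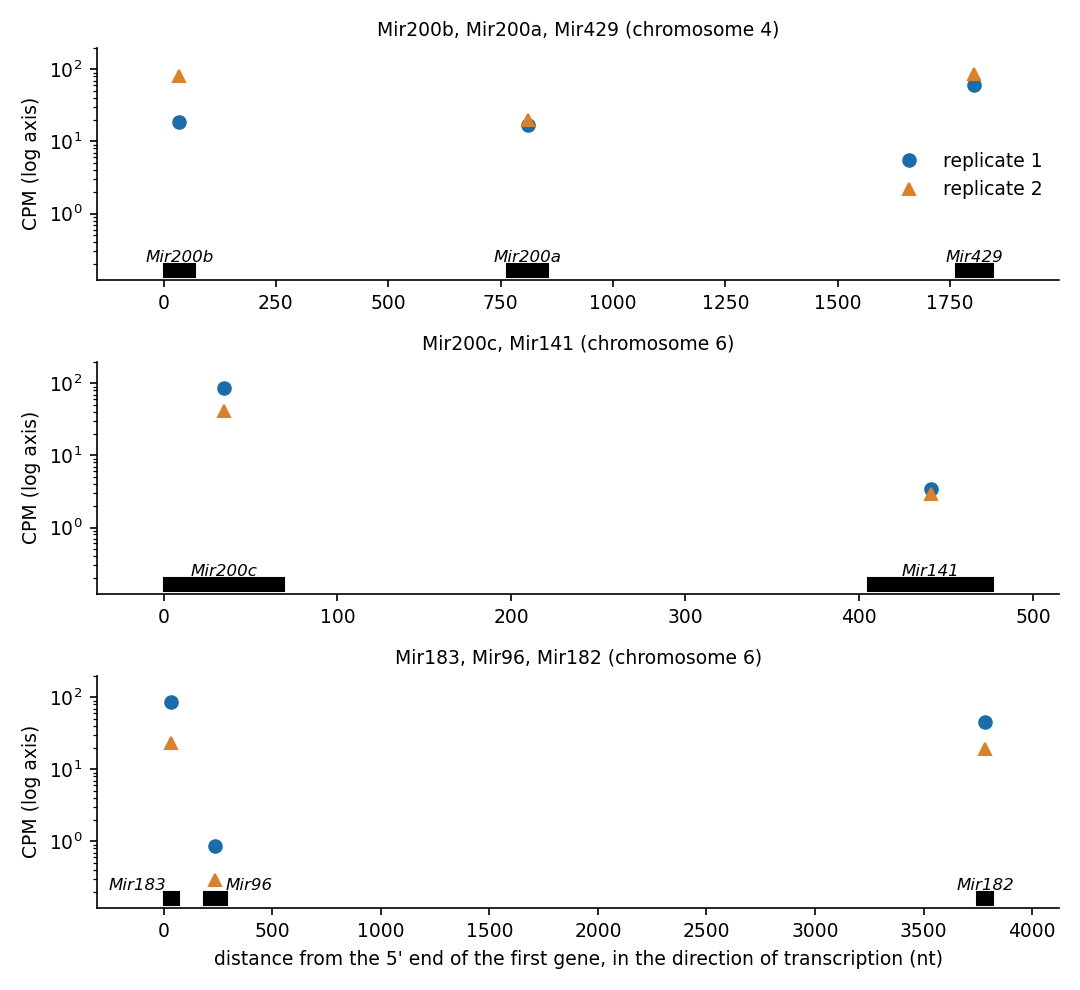
CPM on a log axis of each gene in replicate 1 (blue circles) and replicate 2 (orange triangles) against distance in nt along its locus, in the direction of transcription. Black boxes are the hairpins to scale. Mir96 lies between Mir183 and Mir182 at under 1 CPM in both libraries, and Mir200b is the gene of its locus whose points are farthest apart, at 18.5 and 80.5 CPM.

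Divided by locus, the shares of the family differed between the libraries, and divided by seed the shares differed little. Mir200b, Mir200a and Mir429 gave 52.2% of the miR-200 counts in replicate 1 (47.5 to 56.9) and 80.9% in replicate 2 (78 to 83.5). Their summed level was 96.9 CPM in replicate 1, against 187 CPM in replicate 2. Mir200c and Mir141 together had 88.7 CPM in replicate 1, against 44.2 CPM in replicate 2. By seed, the AAUACUG genes gave 89.1% in replicate 1 (85.8 to 91.7) and 90.1% in replicate 2 (87.9 to 92). They exceeded the AACACUG genes by 8.17-fold in replicate 1 (6.02 to 11.3) and by 9.14-fold in replicate 2 (7.23 to 11.7). In CPM, the AAUACUG genes summed to 165 in replicate 1 and 209 in replicate 2, and the AACACUG genes to 20.2 in replicate 1 and 22.8 in replicate 2. Mir200b and Mir200c, which differed between the libraries in opposite directions, belong to the same seed group.

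**Figure D3:**
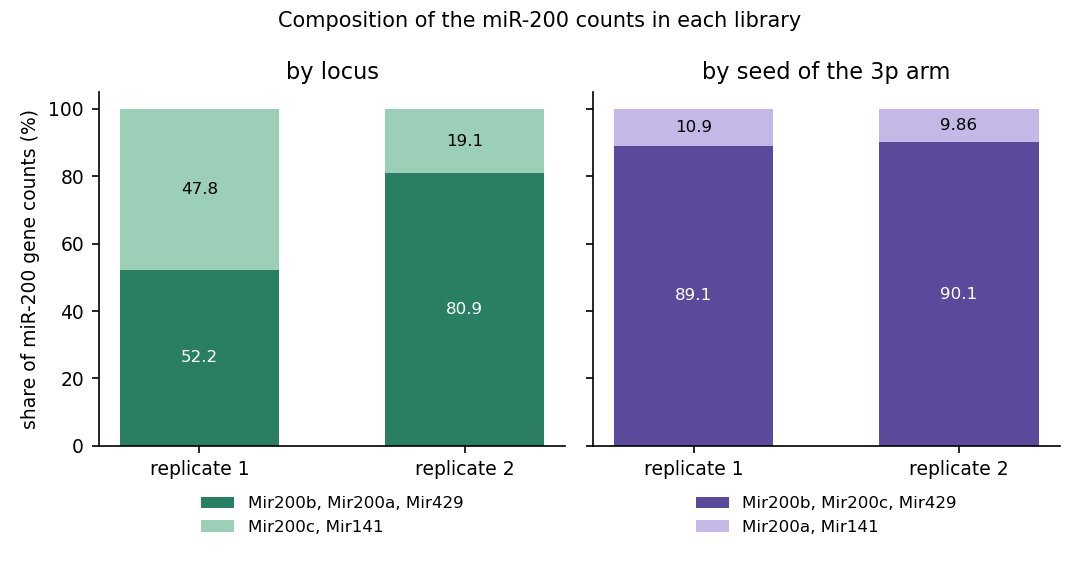
Share (%) of the miR-200 gene counts in each library, divided by locus (left) and by the seed of the 3p arm (right). The Mir200b, Mir200a and Mir429 locus holds 52.2% and 80.9% in replicates 1 and 2, whereas the seed group of Mir200b, Mir200c and Mir429 holds 89.1% and 90.1%.

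No other gene of the RefSeq table carried either miR-200 seed, or the seed of miR-183-5p or miR-182-5p, in a mature sequence. The seed of miR-96-5p was shared with miR-1271-5p, whose gene Gm24195 had 0 counts in both libraries, which allows up to 1.29 and 0.879 CPM. Neither gene of the UUGGCAC seed therefore had counts above the limit of a count of 0, though Mir96 had a few reads.

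Between the libraries, 5 of the 7 detected members differed beyond counting error, against 50.9% of all 401 detected genes, by a two-sided exact binomial test on counts with Benjamini-Hochberg adjustment over those 401. That test compares 2 libraries and not conditions. Of the 5 genes, 3 were higher in replicate 1 (background 22.7%) and 2 were lower (background 28.2%). Among the 116 detected genes with means of 10 to 100 CPM, where all detected members but Mir141 lie, 34.5% were called. The median absolute log2 ratio was 1.07 over the detected members, 0.33 over all detected genes and 0.37 over those 116. A ratio of 2-fold or more was found for 4 members and for 10.5% of all detected genes.

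Of the members higher in replicate 1, Mir183 had the largest ratio, 3.74-fold (log2 ratio 1.90, exact 95% interval 1.53 to 2.30, adjusted exact binomial p = 9.03e-26). Mir182 was 2.43-fold higher in replicate 1 (log2 ratio 1.28, 0.83 to 1.76, adjusted exact binomial p = 3.91e-08). The 2 detected genes of the cluster thus moved in the same direction, and the cluster sum was 3.17-fold higher in replicate 1 (2.59 to 3.88). Mir200c was 2.1-fold higher in replicate 1 (log2 ratio 1.07, 0.75 to 1.39, adjusted exact binomial p = 4.87e-11).

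Mir200b went the other way, with a log2 ratio of -2.08 (-2.59 to -1.63, adjusted exact binomial p = 1.96e-24), or 4.23-fold lower in replicate 1. Mir429 was 1.39-fold lower in replicate 1 (log2 ratio -0.47, -0.77 to -0.18, adjusted exact binomial p = 0.00259). Mir200a had a log2 ratio of -0.21 (-0.83 to 0.37) and Mir141 one of 0.28 (-1.28 to 1.75), and neither passed the test (adjusted exact binomial p = 0.638 and 0.875). By absolute log2 ratio, Mir200b ranked 7 and Mir183 ranked 8 among the 401 detected genes. Mir182 ranked 30, Mir200c 38 and Mir429 124.

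The test on counting error does not take in the spread that most genes show between these libraries. With edgeR's exact test, which uses a common dispersion from both libraries (a biological coefficient of variation of 29.9%), 0 of the 7 members were called at an adjusted p under 0.05, against 0.748% of the 401 genes. For that dispersion both libraries were taken as 1 group, so it holds the differences under test, and few calls follow from this. The word biological is edgeR's name, and the spread may be technical. At an unadjusted p under 0.05, Mir200b and Mir183 passed edgeR's exact test, 2 of 7 members, against 6.23% of all detected genes (edgeR exact p = 0.00214 and 0.00433). The sum of the miR-200 genes had a log2 ratio of -0.29 (-0.47 to -0.12) of replicate 1 over replicate 2. Without Mir200b, left out after its values were seen, it was 0.17 (-0.02 to 0.36), so the direction of the family's sum rests on that gene.

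**Figure D4:**
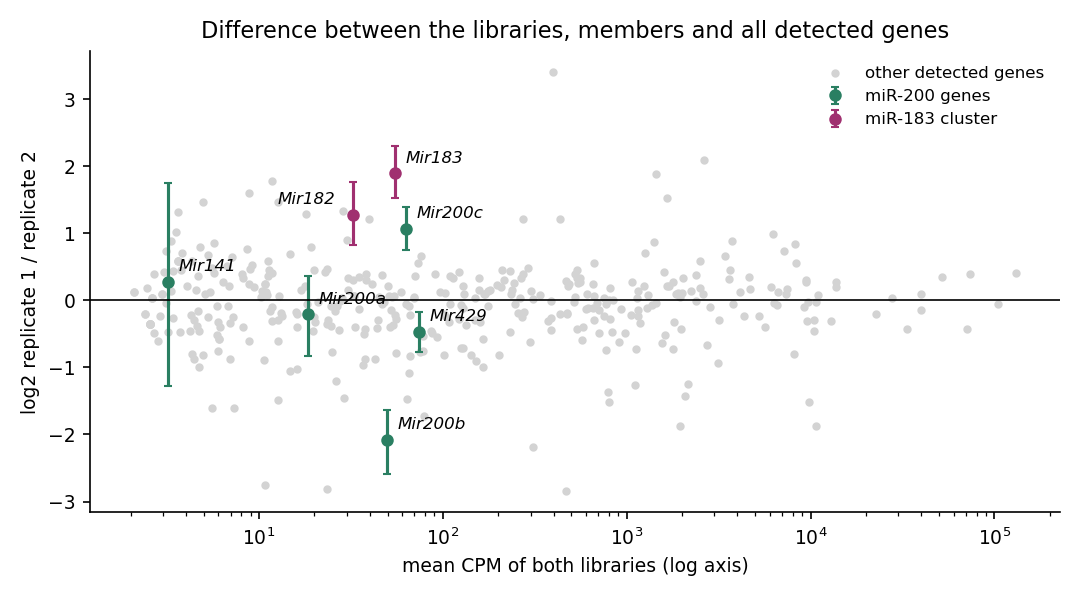
Log2 ratio of replicate 1 over replicate 2 against mean CPM (log axis) for miR-200 genes (green), miR-183 cluster genes (purple) and the other detected genes (grey). Bars are exact 95% counting intervals. Mir183, Mir182 and Mir200c lie above the line of no difference and Mir200b lies at -2.08.

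The ratio of the miR-200 sum to the miR-183 cluster sum, which does not depend on the library total, was 1.39 in replicate 1 (exact 95% interval 1.2 to 1.62) and 5.42 in replicate 2 (4.54 to 6.51). Its log2 had a mean of 1.46 and an SD of 1.38 (n = 2), so the excess of miR-200 counts was on the same side in both libraries and varied in size about as much as its mean.

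Genes known from other epithelia and from the choroid plexus, a ciliated epithelium that borders the hippocampus, were present in the same libraries. Their list of 9 genes had a sum of 1099 CPM in replicate 1 and of 1080 CPM in replicate 2, with 5 genes detected. Mir204, abundant in choroid plexus and retinal pigment epithelium, had 590 and 738 CPM in replicates 1 and 2. Mir203, a microRNA of stratified epithelium, had 46.9 and 84.9 CPM, a mean of 65.9 CPM beside 74.3 CPM for Mir429. Mir205, also of stratified epithelium, had 0 and 2 counts, Mir449c 0 and 2, Mir211 7 and 3, and Mir449b 0 in both libraries. Of the 5 detected genes, Mir204, Mir203 and Mir34b were lower and Mir34c higher in replicate 1 by the exact binomial test, while Mir449a had 70.2 and 69.4 CPM.

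The list sum had a log2 ratio of 0.05 (-0.02 to 0.12), over genes that went both ways. Mir34c had a log2 ratio of 1.22, while Mir204 had one of -0.30, Mir203 one of -0.83 and Mir34b one of -1.48. Among the members, the chromosome 4 locus had a log2 ratio of -0.93 (-1.15 to -0.71) and the Mir200c and Mir141 locus one of 1.03 (0.72 to 1.34). For the miR-183 cluster, the retina and pineal list of Mir184, Mir211 and Mir204 is the nearest in tissue. Its sum was 648 CPM in replicate 1 and 792 CPM in replicate 2, mostly from Mir204. Mir204 and Mir211 are also on the list of other epithelia and choroid plexus, so the sums of these lists share counts. Mir184 had 55.1 and 53.3 CPM in replicates 1 and 2, and Mir211 had 3.01 and 0.879 CPM. Of the remaining lists, the sums higher in replicate 1 were erythrocyte (1.72-fold), oligodendrocyte (1.66-fold), pituitary and neuroendocrine (1.22-fold) and endothelium (1.21-fold, Mir126a alone). On the erythrocyte and neuroendocrine lists the genes went both ways. Mir451a had a log2 ratio of 0.87 and Mir144 one of -0.33 on the erythrocyte list. On the neuroendocrine list, Mir7-2 had one of 0.44, Mir7b one of 0.33, Mir7-1 one of 0.11 and Mir375 one of -0.19. All genes of the oligodendrocyte list were higher in replicate 1, to unlike extents. Mir219a-2 had a log2 ratio of 1.53, Mir219a-1 one of 0.39 and Mir338 one of 0.10. Mir219a-1 and Mir7-1 did not pass the exact binomial test. The sums lower in replicate 1 were microglia and leukocyte (ratio 0.806, 0.771 to 0.844), mural (0.947, 0.928 to 0.967) and the neuronal list given below. On the microglia and leukocyte list, Mir150 (log2 ratio -0.74) and Mir142 (-0.53) were lower in replicate 1. Mir146 (0.26) and Mir155 (0.39, not past the test) were higher. Both mural genes, Mir143 (-0.07) and Mir145a (-0.57), were lower. Multimapping reads are in no gene's count, and shared runs were examined for the members only. Counts of listed genes with numbered copies, such as Mir219a-1 and Mir219a-2 or Mir128-1 and Mir128-2, may therefore miss reads, which was not tested. The part of any of these cell types in the members' levels was not tested. Neuronal genes (Mir132, Mir212, Mir137, Mir128-1, Mir128-2, Mir138-1 and Mir138-2), all 7 detected, reached a sum of 33195 CPM in replicate 1, against 47862 CPM in replicate 2, far above both groups of members. The neuronal genes went both ways as well. Mir138-1 (log2 ratio 0.89), Mir138-2 (0.38) and Mir132 (0.08) were higher in replicate 1. Mir128-1 (-1.88), Mir128-2 (-1.42), Mir137 (-0.46) and Mir212 (-0.17) were lower.

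**Figure D5:**
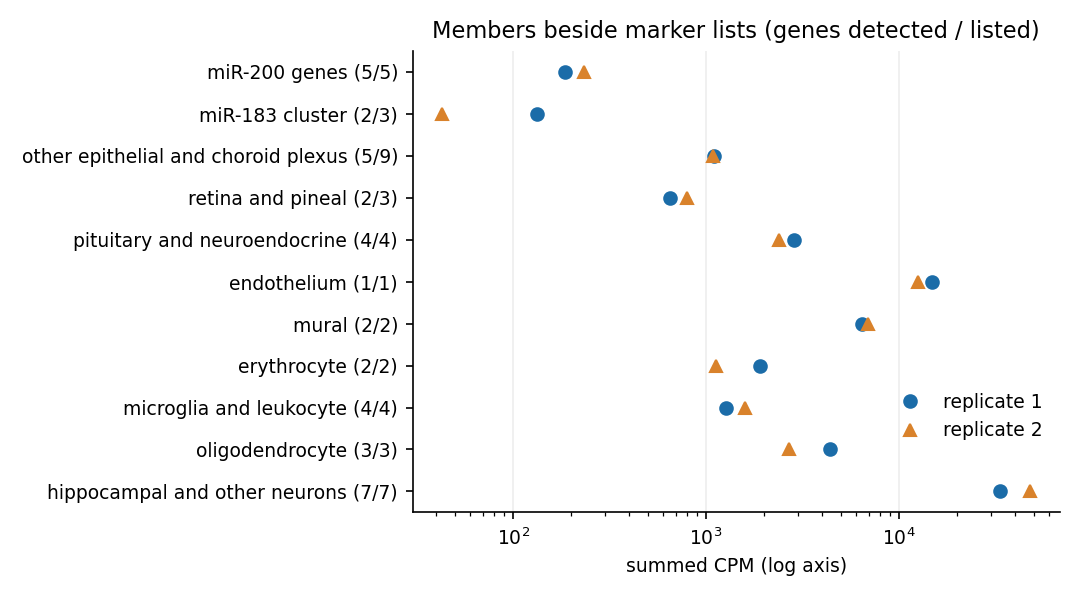
Summed CPM on a log axis of the miR-200 genes, the miR-183 cluster and lists of marker genes in replicate 1 (blue circles) and replicate 2 (orange triangles), with genes detected over genes listed in parentheses. The miR-200 genes (186 and 232 CPM) and the miR-183 cluster (133 and 42.8 CPM) have the lowest sums shown. Mir204 and Mir211 are on both the choroid plexus list and the retina and pineal list.

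Of 307 other detected genes whose mean was at least 10 CPM, those whose ratio between the 2 libraries lay nearest to that of the miR-183 cluster (log2 1.66) were Mir499, Mir219a-2, Gm23935, Mir298 and Mir193a, with log2 ratios from 1.34 to 1.89. Mir499, which lies in a myosin heavy chain gene, had 42 counts in replicate 1 and 18 counts in replicate 2, and Mir219a-2, known from oligodendrocytes, had 5683 counts in replicate 1 and 2953 counts in replicate 2. Those nearest to the miR-200 sum (log2 -0.29) were Mir30e, Mir204, Mir181a-2, Mir1224 and Mir1193, all with log2 ratios of -0.29 or -0.30. Mir204 is the choroid plexus gene described above. Likeness was the absolute difference in log2 ratio over 2 libraries, which many genes can share.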

How the data were processed

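MicroRNA libraries of fragments under 30 nt were made from 2 hippocampal samples of 1 group. The deposited values are counts per microRNA gene, not normalized, 1 table per library with unstranded, same-strand and opposite-strand columns. Per the file headers the assembly was mm10 and the annotation GENCODE M21. The aligner and counting program are not given in the sources used here. Same-strand counts were used, and 4 rows for unmapped, multimapping, no-feature and ambiguous reads did not enter library sizes or tests. They held 63.9% of reads in replicate 1 and 65.9% in replicate 2. IDs were matched to M21 symbols.

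The libraries were compared per gene with a two-sided exact binomial test on TMM effective library sizes (edgeR 4.0.16, R 4.3.3; factors 0.991 and 1.01), over genes at 2 CPM or more in both libraries, adjusted by Benjamini-Hochberg at 0.05. With 1 group there was no contrast for a quasi-likelihood test. Log2 ratios of single genes used 0.5 added to each count. Alternatives were DESeq2 1.42.0 size factors, no TMM factors, edgeR's exact test, other totals, thresholds and columns, and each library alone. The tests were checked on simulated counts, the binomial test on counts with counting error only. That check of the binomial test does not cover the wider spread between these libraries. Exact intervals of single-gene log2 ratios came from R, and those of sums and within-library ratios from scipy 1.17.1.

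The members and lists were chosen with earlier results of these data known. The genes named were all members, the marker lists, genes at the loci or with a member's seed, and the 5 genes nearest in ratio to each group. Neighbouring gene pairs were added after the values were seen. Sequences are from RefSeq (GRCm38.p6).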

Additional observations from a re-analysis of the deposited data

How the results depend on the processing

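The 5 calls between the libraries were made again without TMM factors, with DESeq2 size factors, with unstranded counts and without a filter on low counts, and in these settings all 28 recomputed ratios of the detected members kept their direction and side of the threshold. With edgeR's exact test and a common dispersion, which holds the differences under test, 0 members were called. The number of detected members was 7 at 1 CPM, with over 3 counts, with unstranded counts and in each library alone, and 6 at 5 CPM, where Mir141 was lost. CPM depends on the total: the miR-200 sum was 73 CPM over all reads and 366 CPM with the 5 most abundant genes left out of the total, and the miR-183 sum was 31.3 CPM over all reads and 157 CPM with those genes left out. With either library left out, the miR-200 sum lay between 186 and 232 CPM, the miR-183 sum between 42.8 and 133 CPM, and the log2 ratio of these sums between 0.48 and 2.44. The levels of single members moved by more than 1 SD in 11 of 24 alternatives on the total or the column, all of them changes of the total. Leaving out 1 of 2 libraries is not counted, since it cannot move a mean by 1 SD. The log2 ratio of the miR-200 sum between the libraries turned to 0.17 without Mir200b, an alternative added after seeing the data, and no other alternative reversed a direction. No paired analysis was possible because there is only 1 group. Depth limits Mir96 and Mir141, with at most 2 and 10 counts in a library.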

Other observations

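Neighbouring genes of 1 cluster differed in their ratio between the libraries, and Mir200b was among the widest cases. This set of pairs was chosen after the values were seen. Among the 108 pairs of adjacent detected microRNA genes on the same strand and at most 10000 nt apart, the median difference in log2 ratio of replicate 1 over replicate 2 was 0.45. Mir200b and Mir200a, 695 nt apart, differed by 1.87 and ranked 3 of these pairs. Mir370 and Mir1188 of the Dlk1-Dio3 domain differed by 2.77, and Mir34c and Mir34b, genes known from ciliated cells and from the p53 response, differed by 2.69 at 451 nt apart. Mir34c had a log2 ratio of 1.22 and Mir34b one of -1.48. The other member pairs lay closer, with differences of 0.79 for Mir200c and Mir141, 0.62 for Mir183 and Mir182, and 0.26 for Mir429 and Mir200a. Of the 42 pairs with both genes past the exact binomial threshold, 18 had opposite directions, and no member pair was among these. Of all 401 detected genes, 91 were called higher and 113 lower in replicate 1. Unrelated called genes would therefore often differ in direction too, so the count of 18 does not mark neighbours as unlike. The pairs share genes and libraries, so they are not independent.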
